A study of Mus musculus with 12 samples.

Results

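In NIH3T3 cells, a mouse embryonic fibroblast line, 54 genes were near silent in normoxia and clearly read in hypoxia. These genes held at most 10 reads in each of the 6 normoxia samples and at least 40 reads in all 3 hypoxia samples of the wild-type line, the dN-VEGF line or both. They were 54 of the 54446 genes in the count table and 54 of the 39249 genes that stayed at or under 10 reads throughout normoxia. A gene is called on in a line when all 3 hypoxia samples of that line reached 40 reads. By this measure 26 genes were on in both lines, 22 in dN-VEGF cells only and 6 in wild-type cells only. Both the choice of these genes and their split by line rest on the read counts themselves, so the difference from normoxia and the split are described here without a test.

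Transcript levels were measured by RNA-seq in 12 samples, 3 in each of 4 groups: wild-type cells in normoxia, wild-type cells in hypoxia, dN-VEGF cells in normoxia and dN-VEGF cells in hypoxia. Hypoxic cultures spent 16 h below 0.2% oxygen, and normoxic cultures spent the same time in air with carbon dioxide. The dN-VEGF line is NIH3T3 in which CRISPR/Cas9 removed, from both alleles, the coding region of N-VEGF, the amino-terminal extension of the long form of vascular endothelial growth factor A, and its control is the unedited parent line. Edited cells were grown from single clones and treated with the recombinase VCre, and the sources used here do not say which clone or clones were sequenced, so a difference between the lines cannot be told apart from a difference between a clone and its parent. The methods state in general that experiments were repeated 3 or more times, in triplicate, if nothing else was said. The sequenced samples are described as triplicates, with nothing on whether they were separate cultures, and p-values then measure only the spread between these samples.

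Mammalian cells answer low oxygen mainly through the hypoxia-inducible factors (HIFs), which are destroyed while oxygen is present and otherwise bind short sites of the type ACGTG or GCGTG near the genes they turn on. Their best known targets, such as the glucose transporter Slc2a1 and the enzymes of glycolysis, are active at a low or moderate level in most cells in air and rise from there. Genes that are silent in a cell type are usually those that serve another tissue, so the 54 genes are given below by what their products do and where they are usually found.

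Each sample held 30519052 to 43056690 reads on genes, and levels are given as CPM, a gene's count scaled to the depth of its sample with TMM factors, on which 40 reads were 0.771 to 1.37 CPM and 10 reads 0.193 to 0.342 CPM. In each of the 4 groups replicate 2 was the sample farthest from the others, most so in normoxia. In wild-type normoxia its correlation of log levels with the others was 0.956 and 0.957, against 0.996 for the other pair, and in dN-VEGF normoxia 0.986 against 0.996. The 54 genes summed to 2.44 CPM in replicate 2 of wild-type normoxia, within the 2.39 to 3.31 CPM of the 6 normoxia samples. Vegfa, the edited gene, was read at 1698 to 4290 counts in wild-type normoxia, 1445 to 1732 in dN-VEGF normoxia, 7953 to 11424 in wild-type hypoxia and 13018 to 14033 in dN-VEGF hypoxia. A count over the whole gene does not test a deletion of part of it. The summed level of 10 fibroblast markers was 17900 to 24700 CPM in wild-type normoxia, 29200 to 31600 in wild-type hypoxia, 21400 to 22700 in dN-VEGF normoxia and 44000 to 46100 in dN-VEGF hypoxia. The epithelial marker Epcam, the muscle regulator Myod1, the liver genes Alb, Ttr and Fga, and the germ cell genes Dazl and Tnp1 held 0 reads in all 12 samples. The sets for other cell types held 8 markers each. Epithelial markers summed to 3.55 to 3.95 CPM in wild-type normoxia and 8.71 to 10.4 CPM in wild-type hypoxia. In dN-VEGF cells they summed to 2.27 to 2.79 CPM in normoxia and 3.0 to 3.35 CPM in hypoxia. Hepatocyte markers were at most 0.568 CPM in normoxia, 0.104 to 0.137 CPM in wild-type hypoxia and 0.658 to 1.2 CPM in dN-VEGF hypoxia. Blood lineage markers summed to 2.85 to 9.59 CPM in normoxia, at most 31.1 CPM in wild-type hypoxia and 51.2 to 54.5 CPM in dN-VEGF hypoxia. Of these 8 blood markers, 6 were under 1 CPM in every sample. Endothelial markers summed to 2.71 to 5.29 CPM in normoxia, 7.82 to 10.1 in wild-type and 21.1 to 25.9 in dN-VEGF hypoxia. Skeletal muscle markers reached 27.7 CPM in normoxia, 38.3 in wild-type and 17.9 in dN-VEGF hypoxia, neuronal markers 29.7 to 55.3 CPM across all samples and germ cell markers at most 1.79 CPM. Whether other cell types contribute to the levels below was not tested, and in bulk RNA fewer cells of a type and less RNA per cell cannot be told apart.

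In normoxia the 54 genes together gave 102 to 167 reads per sample. In hypoxia they gave 7325 to 9642 reads in wild-type samples and 15085 to 16202 in dN-VEGF samples, a summed mean level of 246 CPM and 493 CPM. The median normoxia total of a gene over all 6 samples was 12 reads, and Vgll1, Ghrh, F2rl2 and Hsd17b2 had none at all. All 54 genes were detected in each of the 6 hypoxia samples, including those below 40 reads in a line. Replicates lay close together: the coefficient of variation between the 3 hypoxia samples had a median of 9.23% over the 32 genes on in wild-type cells and 8.08% over the 48 genes on in dN-VEGF cells. A few genes carried much of the signal. Gpr35, Aire, Zbtb8b and Megf6 made up 46.3% of the summed level in wild-type hypoxia, and A2m, Gpr35, P2ry6 and Zbtb8b 46.6% of that in dN-VEGF hypoxia, while the median gene stood at 1.53 CPM and 2.58 CPM. For comparison, edgeR called 9.17% of the 14724 tested genes higher and 6.53% lower in hypoxia in wild-type cells, and 14.6% higher and 12.7% lower in dN-VEGF cells, and the reverse pattern (at least 40 reads in all normoxia samples of a line, at most 10 in each hypoxia sample) was met by 3 genes, namely Agtr2, Gm37022 and Slc14a1.

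**Figure D1:**
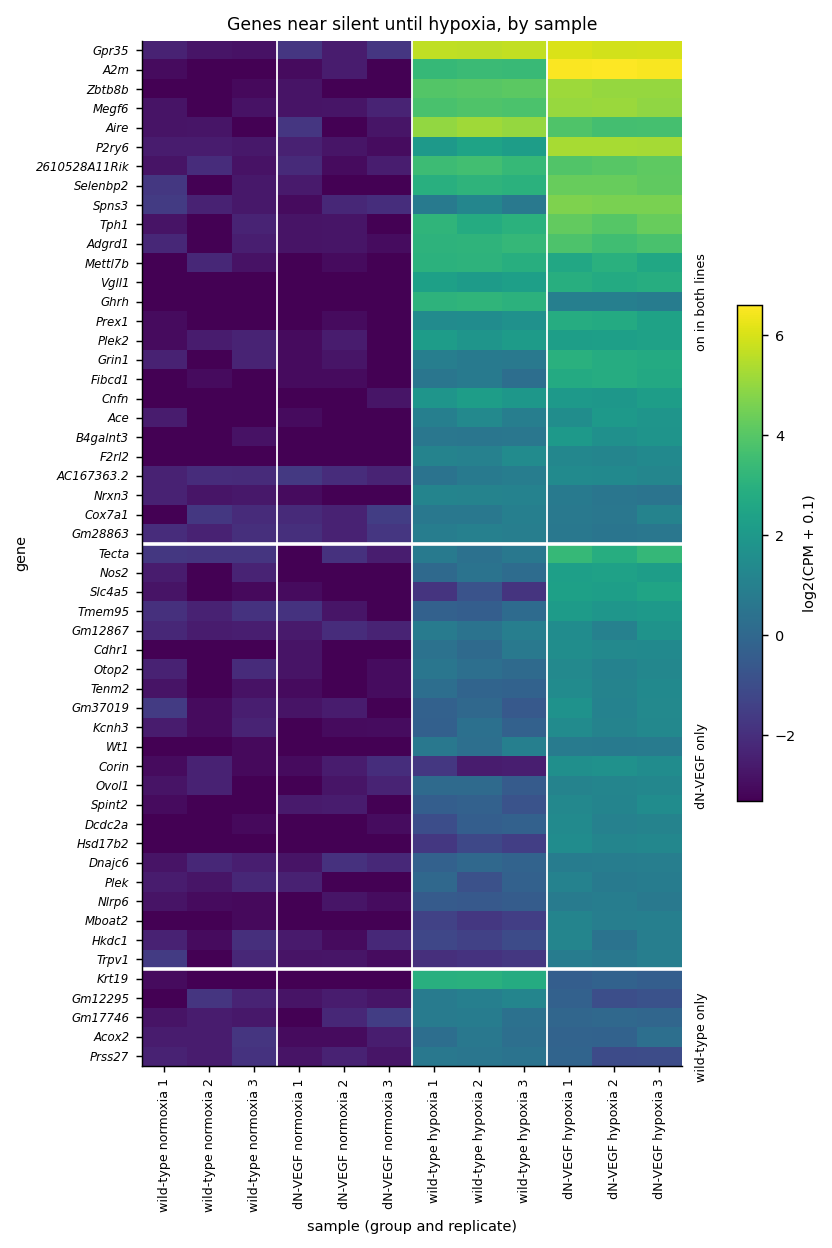
Each row is 1 gene, for all but 1 of the 54 genes, grouped by the line or lines in which it was on and ordered by mean level in hypoxia, and each column is 1 of the 12 samples. Colour gives log2(CPM + 0.1). All 6 normoxia columns are dark, and the brightest cells are A2m and Gpr35 in the 3 dN-VEGF hypoxia samples.

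By role, the largest sets were 10 proteins of adhesion, matrix or cell shape and 10 enzymes or carriers of metabolism, followed by 6 channels or transporters, 6 noncoding genes, 5 receptors, 5 nuclear regulators, 5 proteases or protease inhibitors, 5 signalling proteins of the cell interior and 2 secreted ligands. These groups were drawn from general knowledge after the genes were known. By usual tissue, 9 genes belong to the nervous system or sense organs, 9 to surface epithelium, 7 to gut and immune cells, 5 to liver, 3 to blood cells and 3 to heart and muscle. All 5 receptors and both ligands were on in both lines. Of the 6 channels or transporters, 2 were on in both lines and 4 in dN-VEGF cells only. Of the 9 nervous system genes, 3 were on in both lines and 6 in dN-VEGF cells only. Over all 54 genes, 26 were on in both lines and 22 in dN-VEGF cells only. These splits depend on the floor. At a floor of 20 reads, the nervous system genes Tecta, Cdhr1, Tenm2, Kcnh3 and Dnajc6 counted as on in both lines, as did the channel Otop2.

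Among the receptors, Gpr35 was the most abundant transcript of the 54 in wild-type cells. Gpr35, a G protein-coupled receptor of gut epithelium and immune cells (chr1:92950865-92986391, plus strand), held 4, 2 and 2 reads in wild-type normoxia, 9, 3 and 8 in dN-VEGF normoxia, 1951, 1444 and 2024 in wild-type hypoxia, and 2090, 1886 and 2050 in dN-VEGF hypoxia. The ratio of pooled CPM, hypoxia over normoxia, was 879 in wild-type cells (95% counting interval 446 to 2040) and 408 in dN-VEGF cells (264 to 668). These intervals, and those below, cover counting error only. All hypoxia samples stood far above all normoxia samples, and the lines lay close together, at 50.6 ± 1.06 and 63.0 ± 2.41 CPM (SD, n = 3). P2ry6, a receptor for UDP on immune and epithelial cells (chr7:100937630-100974649, minus strand), held 3, 3 and 3 reads in wild-type normoxia, 4, 2 and 1 in dN-VEGF normoxia, 156, 153 and 177 in wild-type hypoxia, and 1254, 1238 and 1236 in dN-VEGF hypoxia. Its hypoxia samples therefore fell into separate ranges by line, 4.05 to 5.24 CPM in wild-type and 37.9 to 39.8 CPM in dN-VEGF cells.

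The other receptors were Adgrd1, Fibcd1 and F2rl2. Adgrd1, an adhesion G protein-coupled receptor, held 5, 0 and 4 reads in wild-type normoxia, 2, 2 and 1 in dN-VEGF normoxia, 323, 252 and 376 in wild-type hypoxia and 452, 367 and 440 in dN-VEGF hypoxia. Fibcd1, a chitin-binding receptor of epithelial surfaces, held 0, 1 and 0 reads in wild-type normoxia, 1, 1 and 0 in dN-VEGF normoxia, 54, 45 and 43 in wild-type hypoxia and 209, 218 and 205 in dN-VEGF hypoxia. F2rl2, a protease-activated receptor that serves as a thrombin cofactor on platelets, was at 0 in all 6 normoxia samples and at 57 to 106 and 68 to 83 reads in hypoxia, where the lines overlapped.

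The ligands were both on in both lines. Ghrh, the hypothalamic hormone that releases growth hormone (chr2:157329497-157347506, minus strand), held 0 reads in all 6 normoxia samples, 324, 262 and 324 in wild-type hypoxia and 59, 58 and 55 in dN-VEGF hypoxia. Against a floor of 3 reads over the 3 normoxia samples it was at least 394-fold higher in wild-type and at least 77.6-fold higher in dN-VEGF cells. 2610528A11Rik, which encodes a small secreted ligand of surface epithelia, held 2, 6 and 2 reads in wild-type normoxia, 6, 1 and 3 in dN-VEGF normoxia, 432, 351 and 388 in wild-type hypoxia and 478, 499 and 576 in dN-VEGF hypoxia. Per kilobase of exon it was the highest of the 54 genes, with a mean of 16.5 CPM per kb over the 6 hypoxia samples against 11.7 for Gpr35, 7.74 for Ghrh, 7.55 for P2ry6, 7.46 for A2m, 6.09 for Aire and 3.83 for Zbtb8b.

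Of the nuclear regulators, Aire was higher in wild-type cells and Zbtb8b in dN-VEGF cells. Aire, the regulator through which medullary thymic epithelial cells express genes of other tissues (chr10:78030022-78043610, minus strand), held 2, 2 and 0 reads in wild-type normoxia, 9, 0 and 2 in dN-VEGF normoxia, 1219, 1047 and 1281 in wild-type hypoxia and 468, 378 and 416 in dN-VEGF hypoxia. The pooled ratio was 1150 (449 to 4220) in wild-type and 155 (86.5 to 312) in dN-VEGF cells. Zbtb8b, a zinc-finger protein with a BTB domain and no well described role (chr4:129425765-129440853, minus strand), held 0, 0 and 1 reads in wild-type normoxia, 2, 0 and 0 in dN-VEGF normoxia, 586, 468 and 667 in wild-type hypoxia and 1125, 1027 and 1069 in dN-VEGF hypoxia. Neither gene's hypoxia samples overlapped between the lines. Vgll1, a cofactor of the TEAD factors found in epithelia and placenta, went from 0 reads in every normoxia sample to 126 to 189 in wild-type and 206 to 235 in dN-VEGF hypoxia.

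No other listed gene of medullary thymic epithelium met the rule that Aire met. Of 20 listed genes (markers of these cells and tissue genes that Aire is known to release), 19 were in the table and 13 of those were too low to be tested. Epcam, Ccl21a, Ins2, Csn2 and Mup1 held 0 reads in all 12 samples, and Fezf2 at most 3. Apart from Aire, Foxn1, the master regulator of thymic epithelium, was at 0.166, 1.26, 0.146 and 0.872 CPM in wild-type normoxia, wild-type hypoxia, dN-VEGF normoxia and dN-VEGF hypoxia, with log2 changes in hypoxia of 2.90 and 2.54 (edgeR adjusted p = 2e-04 and 4e-04). The keratin Krt14 was at 1.96, 8.64, 1.72 and 2.69 CPM in the same order. Leaving out Aire, hypoxia raised 2 of the 5 tested genes and lowered 0 in wild-type cells, and raised 1 and lowered 2 in dN-VEGF cells, with a median log2 change of 0.22 and -0.09 against -0.07 and -0.01 over all tested genes. Over all tested genes, 9.17% were raised and 6.53% lowered in wild-type cells, and 14.6% and 12.7% in dN-VEGF cells. Those lowered in dN-VEGF cells were Krt8 and Ly75 (log2 changes -2.61 and -1.15, edgeR adjusted p = 0.026 and 0.0051). In hypoxia 3 of the 5 were lower and 0 higher in dN-VEGF than in wild-type cells, beside 3.94% and 2.87% of all tested genes. Aire overlaps Dnmt3l, a cofactor of DNA methylation in germ cells, on the opposite strand over 67 bases of exon (1.75% of its own). Dnmt3l was at 0.495 CPM in wild-type normoxia, 2.14 in wild-type hypoxia, 1.63 in dN-VEGF normoxia and 8.25 in dN-VEGF hypoxia, so in hypoxia it was lower in the line where Aire was higher.

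Zbtb8b was the only gene of its family to meet the rule. The table held 42 genes whose symbols begin with Zbtb, of which 38 were tested. Leaving out Zbtb8b, hypoxia raised 0 of 37 and lowered 1 in wild-type cells, where Zbtb2 was lowered, and raised 4 and lowered 1 in dN-VEGF cells, by edgeR. Of all tested genes, 9.17% were higher and 6.53% lower in wild-type cells and 14.6% and 12.7% in dN-VEGF cells. Zbtb8a, the neighbouring gene of the family, was at 8.38, 9.76, 8.8 and 14.6 CPM in wild-type normoxia, wild-type hypoxia, dN-VEGF normoxia and dN-VEGF hypoxia.

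A2m reached the highest level of all. A2m, a protease trap of the alpha-2-macroglobulin family that was grouped above with liver (chr6:121635376-121679227, plus strand), held 1, 0 and 0 reads in wild-type normoxia, 1, 3 and 0 in dN-VEGF normoxia, 385, 312 and 415 in wild-type hypoxia and 3021, 3021 and 2971 in dN-VEGF hypoxia. The pooled ratio was 1440 in wild-type cells, where 1 normoxia read leaves a counting interval of 258 to 57000, and 3050 (1190 to 11200) in dN-VEGF cells. The hypoxia samples of the lines were far apart, at 10.4 ± 0.372 and 94.3 ± 3.06 CPM (SD, n = 3). Of its relatives, Mug1 and Mug2 had at most 1 read in any sample, and Pzp at most 12. Of 30 genes of this family and of liver plasma proteins, 13 were tested. Leaving out A2m, 2 of 12 were raised and 2 lowered by hypoxia in wild-type cells, and 6 raised and 0 lowered in dN-VEGF cells, beside 9.17% higher and 6.53% lower of all tested genes in wild-type and 14.6% and 12.7% in dN-VEGF cells. In hypoxia 8 of the 12 were higher and 1 lower in dN-VEGF than in wild-type cells, where 2.87% of all tested genes were higher and 3.94% lower. The median log2 difference of the 12 was 2.21 against -0.01 over all tested genes. They include complement C3, at 23.6 CPM in wild-type and 163 CPM in dN-VEGF hypoxia (log2 difference 2.79, edgeR adjusted p = 0.04), and the protease inhibitor Serpina3n, at 0.500 and 4.49 CPM (3.17, edgeR adjusted p = 0.0017). C3 varied widely in normoxia, at 33.5 ± 27.2 CPM in wild-type and 20.8 ± 16.6 CPM in dN-VEGF cells (SD, n = 3). Hc already stood at 1.72 CPM in wild-type and 5.0 CPM in dN-VEGF normoxia. Serpina1a, Ahsg and Lcn2 were low, at 0.804, 0.88 and 1.19 CPM in dN-VEGF hypoxia. The liver's most abundant products, Alb, Ttr and Fga, were not detected.

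Other proteases and inhibitors were nearer to the threshold. Ace, the angiotensin-converting enzyme, went from at most 3 reads to 70 to 71 in wild-type and 91 to 123 in dN-VEGF hypoxia. Corin, the heart protease that activates atrial natriuretic peptide, held 8, 2 and 3 reads in wild-type hypoxia, against at most 6 in any normoxia sample and 95, 97 and 90 in dN-VEGF hypoxia. Spint2, a membrane inhibitor of serine proteases, was at 19 to 26 and 66 to 89 reads. Prss27, a serine protease of surface epithelia, was on in wild-type cells only, with 4, 3 and 9 reads in wild-type normoxia, 2, 4 and 2 in dN-VEGF normoxia, 57, 41 and 50 in wild-type hypoxia and 26, 12 and 13 in dN-VEGF hypoxia.

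Among the purinergic receptors, P2ry6 alone met the rule. Of 19 genes, 9 were tested and 9 stayed at or under 10 reads in normoxia. Leaving out P2ry6, 2 of 8 were raised by hypoxia and 0 lowered in wild-type cells, and 3 were raised and 2 lowered in dN-VEGF cells, with median log2 changes of -0.32 and -0.08 against -0.07 and -0.01 over all tested genes, of which 9.17% were higher and 6.53% lower in wild-type and 14.6% and 12.7% in dN-VEGF cells. P2ry2, a receptor for ATP and UTP, was at 3.3 and 13.9 CPM in wild-type and 3.88 and 29.0 CPM in dN-VEGF cells in normoxia and hypoxia (log2 changes 2.07 and 2.90, edgeR adjusted p = 9.8e-05 and 5.2e-06). The adenosine receptor Adora2b was at 6.44 and 15.9 CPM in wild-type and 6.28 and 18.4 CPM in dN-VEGF cells (1.30 and 1.55, edgeR adjusted p = 7.1e-06 and 1e-06).

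**Figure D2:**
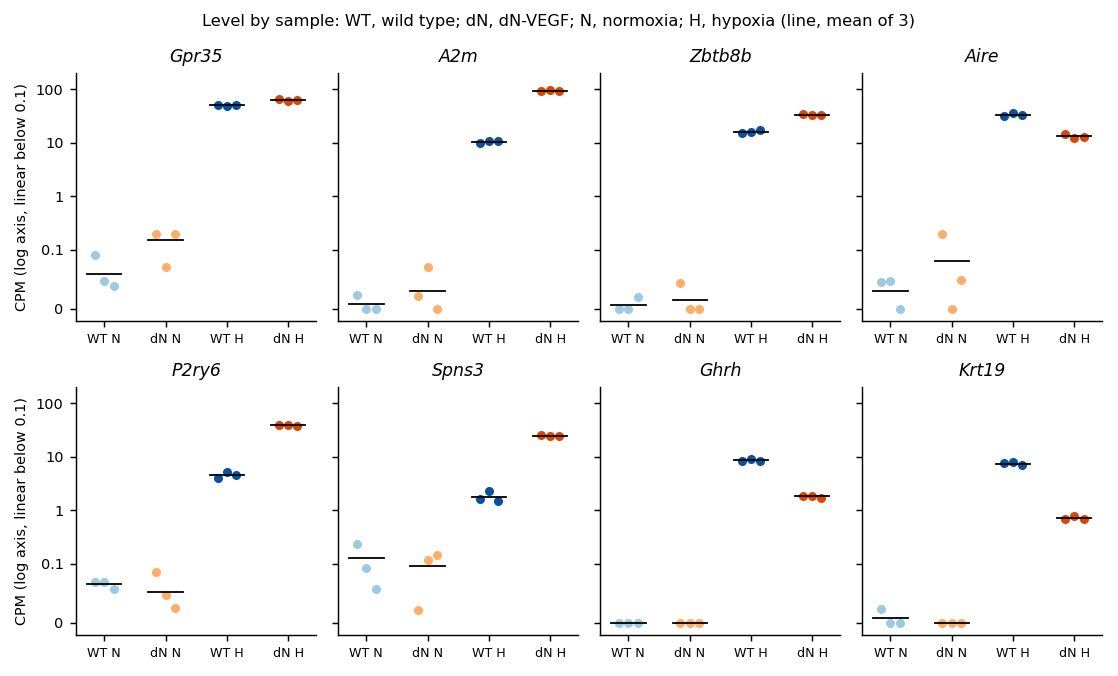
Points are the CPM of single samples and lines the mean of 3, for 8 of the genes on a log axis that is linear below 0.1 CPM. Normoxia samples of both lines sit at or near 0 for every gene shown. In hypoxia dN-VEGF samples lie above wild-type samples for A2m, Zbtb8b, P2ry6 and Spns3 and below them for Aire, Ghrh and Krt19.

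Enzymes and carriers of metabolism formed a set of 10. Tph1, which makes the first and limiting step of serotonin synthesis outside the brain, held 2, 0 and 5 reads in wild-type normoxia, 2, 2 and 0 in dN-VEGF normoxia, 344, 200 and 315 in wild-type hypoxia and 593, 485 and 635 in dN-VEGF hypoxia. Selenbp2, a selenium-binding protein of liver, held 9, 0 and 3 reads in wild-type normoxia, 3, 0 and 0 in dN-VEGF normoxia, 290, 253 and 313 in wild-type hypoxia and 628, 599 and 585 in dN-VEGF hypoxia. Of its 80-base windows, 24.9% also occur in the paralog Selenbp1, which stood at 160 and 356 CPM in hypoxia in the 2 lines, against 8.06 and 19.0 CPM for Selenbp2, so the count of Selenbp2 is uncertain. Mettl7b, a methyltransferase of liver, was slightly higher in wild-type cells, with 0, 5 and 2 reads in wild-type normoxia, 0, 1 and 0 in dN-VEGF normoxia, 319, 246 and 292 in wild-type hypoxia and 193, 239 and 191 in dN-VEGF hypoxia, but the lines did not separate once scaled to depth.

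The remaining enzymes were B4galnt3, which adds N-acetylgalactosamine to glycans, at 41 to 56 and 95 to 128 reads, and Cox7a1, the muscle form of a subunit of cytochrome c oxidase, at 43 to 73 and 45 to 68 reads. Nos2, the inducible nitric oxide synthase of macrophages and a known HIF target, held 3, 0 and 5 reads in wild-type normoxia, none in dN-VEGF normoxia, 37, 37 and 41 reads in wild-type hypoxia and 150, 157 and 146 in dN-VEGF hypoxia, and so missed the wild-type threshold by 3 reads in 2 samples. Hsd17b2, which inactivates estradiol, had 0 reads in normoxia, 8 to 10 in wild-type hypoxia and 69 to 88 in dN-VEGF hypoxia. Mboat2, a lysophospholipid acyltransferase, was at 6 to 11 and 56 to 67 reads, and Hkdc1, a hexokinase-like enzyme, at 8 to 15 and 40 to 70. Acox2, a peroxisomal oxidase of bile acid synthesis, was on in wild-type cells only, with 3, 3 and 10 reads in wild-type normoxia, 1, 1 and 3 in dN-VEGF normoxia, 42, 43 and 44 in wild-type hypoxia and 25, 24 and 37 in dN-VEGF hypoxia.

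Of the 6 channels and transporters, 4 belonged to the genes on in dN-VEGF cells only, whose direction the rule largely set. Spns3, of the Spinster family of membrane transporters, held 10, 4 and 3 reads in wild-type normoxia, 1, 5 and 6 in dN-VEGF normoxia, 61, 66 and 59 in wild-type hypoxia and 816, 763 and 794 in dN-VEGF hypoxia. It was thus not far above the threshold in wild-type hypoxia, at 1.78 ± 0.416 CPM, and well above it in dN-VEGF hypoxia, at 24.8 ± 0.653 CPM (SD, n = 3). Grin1, the obligatory subunit of NMDA glutamate receptors, held 4, 0 and 5 reads in wild-type normoxia, 1, 2 and 0 in dN-VEGF normoxia, 69, 46 and 59 in wild-type hypoxia and 245, 215 and 214 in dN-VEGF hypoxia. Slc4a5, a sodium bicarbonate cotransporter, held 2, 0 and 1 reads in wild-type normoxia, 1, 0 and 0 in dN-VEGF normoxia, 7, 14 and 7 in wild-type hypoxia and 156, 143 and 178 in dN-VEGF hypoxia. Trpv1, the capsaicin and heat receptor of sensory neurons, was at 5 to 8 reads in wild-type hypoxia, within its normoxia range of 0 to 10, and at 46 to 59 in dN-VEGF hypoxia. Otop2, a proton channel of gut, was at 33 to 53 and 62 to 79 reads, and Kcnh3, a potassium channel of forebrain, at 28 to 34 and 65 to 84.

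Proteins of adhesion, matrix and cell shape included the highest gene of each single-line class, Krt19 in wild-type and Tecta in dN-VEGF cells. Krt19, a keratin of simple epithelia (chr11:100140810-100148665, minus strand), held 1, 0 and 0 reads in wild-type normoxia, none in dN-VEGF normoxia, 293, 229 and 270 reads in wild-type hypoxia and 22, 24 and 22 in dN-VEGF hypoxia. Wild-type hypoxia samples were thus above dN-VEGF samples by a ratio of 10.4 in pooled CPM, and both were above normoxia. Megf6, a secreted protein with repeats of the epidermal growth factor type, held 2, 0 and 2 reads in wild-type normoxia, 2, 2 and 4 in dN-VEGF normoxia, 515, 424 and 538 in wild-type hypoxia and 1076, 1076 and 1009 in dN-VEGF hypoxia. Both lines were far above normoxia, dN-VEGF samples highest. Tecta, of the tectorial membrane of the inner ear, held 9, 8 and 10 reads in wild-type normoxia, 0, 7 and 3 in dN-VEGF normoxia, 62, 35 and 58 reads in wild-type hypoxia and 318, 220 and 314 in dN-VEGF hypoxia. Tmem95, a sperm membrane protein needed for fertilisation, held 7, 4 and 9 reads in wild-type normoxia, 8, 2 and 0 in dN-VEGF normoxia, 29, 20 and 40 reads in wild-type hypoxia and 135, 113 and 129 in dN-VEGF hypoxia. Its span lies 243 bases from Kctd11 on the same strand, which hypoxia raised from 10.7 to 138 CPM in wild-type and from 7.75 to 280 CPM in dN-VEGF cells.

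Other members of this set were Cnfn, a cornified envelope protein of skin, at 133 to 145 and 114 to 148 reads, and Nrxn3, a presynaptic adhesion protein, at 61 to 82 and 43 to 49. Cdhr1, a cadherin of photoreceptors, was at 29 to 60 and 77 to 90 reads, Tenm2, a teneurin of neurons, at 24 to 42 and 64 to 84, and Dcdc2a, a doublecortin-domain protein, at 16 to 29 and 60 to 82.

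The last protein-coding genes were signalling proteins and the regulators Wt1 and Ovol1. Prex1, a Rac exchange factor of neutrophils, went from at most 1 read to 79 to 124 in wild-type and 170 to 220 in dN-VEGF hypoxia. Plek2, an actin-binding pleckstrin relative of red cell precursors, was at 103 to 169 and 147 to 164 reads. Plek, pleckstrin itself, a platelet and leukocyte protein, was at 13 to 36 and 50 to 65, Nlrp6, an inflammasome sensor of gut, at 17 to 25 and 50 to 54, and Dnajc6, the neuronal auxilin, at 27 to 31 and 54 to 58. Wt1, a zinc-finger regulator of kidney and gonad, held 57, 33 and 73 reads in wild-type hypoxia and 52, 48 and 53 in dN-VEGF hypoxia, so its class rests on 1 shallow sample: its mean levels were 1.49 and 1.60 CPM. Ovol1, a regulator of epidermis and germ cells, was at 24 to 38 and 66 to 75 reads.

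The split into lines was in most cases one of level. In wild-type hypoxia, 12 of the 22 genes on in dN-VEGF cells only held at least 20 reads in all 3 samples, 8 reached 40 reads in at least 1 sample, and 3 (Corin, Trpv1 and Hsd17b2) stayed at or under 10 reads. The ratio of pooled CPM in hypoxia, dN-VEGF over wild type, ran from 1.05 for Wt1 to 24.3 for Corin with a median of 3.53. For the 6 genes on in wild-type cells only, the ratio of wild type over dN-VEGF ran from 1.34 for Acox2 to 10.4 for Krt19 with a median of 2.44. With wild-type hypoxia replicate 2 left out, the shallowest sample, Cdhr1, Wt1, Tecta and Gm12867 moved to the genes on in both lines, which then numbered 30. With counts scaled to equal depth, Wt1, Tecta and Gm12867 moved. At the edge of the rule, the counts just inside it included 40 for Hkdc1 and 41 for Prss27, and those just outside it included 39 for A330084C13Rik and 36 for Cplx3. At the other limit, Spns3, Trpv1, Gm37019, Gm17746 and AC167363.2 were among the members with a normoxia sample at 10 reads, while Acp5 and Gm30177 were left out with a sample at 11.

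**Figure D3:**
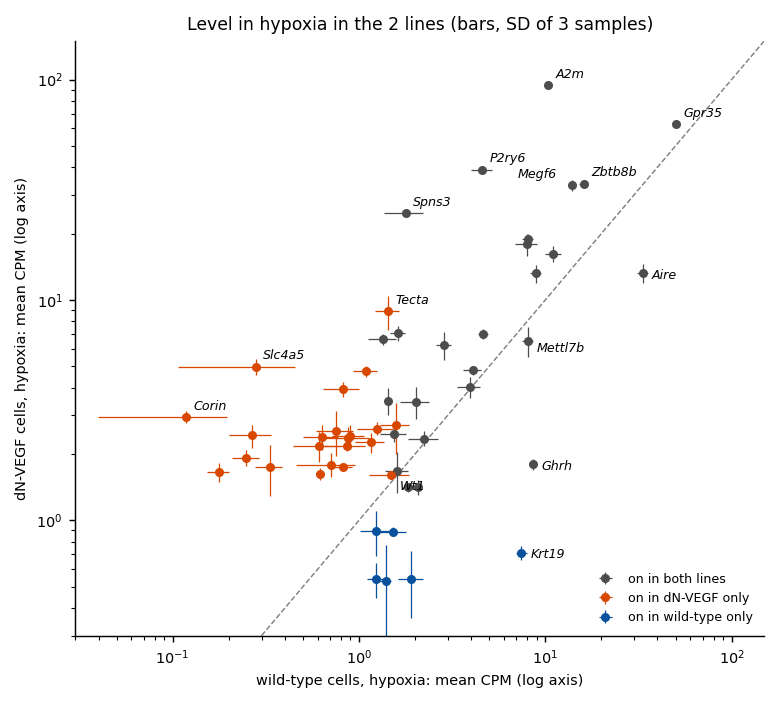
Each point is 1 gene, placed by its mean CPM in wild-type hypoxia and in dN-VEGF hypoxia on log axes, with bars for the SD of 3 samples and a dashed line of equality. Genes on in both lines are grey, those on in dN-VEGF cells only orange and those on in wild-type cells only blue. Most points lie above the line, with Corin, Slc4a5 and Spns3 farthest above it and Krt19 and Ghrh farthest below.

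For the 26 genes on in both lines the rule did not use which line was higher, and this was tested in hypoxia. edgeR called 13 of them different, by a Benjamini-Hochberg adjusted p under 0.05 together with at least a 2-fold difference, 11 higher and 2 lower in dN-VEGF cells, where 6.81% of all 14724 tested genes were called, 2.87% higher and 3.94% lower. The median log2 difference was 0.64 over the 26 genes, 0.52 over the 32 tested genes of a list of HIF targets and -0.01 over all tested genes. The samples of the lines did not overlap for 22 of the 26 genes, 18 higher and 4 lower in dN-VEGF cells, against 59.8% of all tested genes, 29.7% higher and 30.1% lower. The largest difference was that of Spns3, at 3.81 ± 0.32 (log2 difference ± SE, edgeR adjusted p = 5e-05), followed by A2m at 3.18 ± 0.20 (1.1e-05, same test) and P2ry6 at 3.09 ± 0.15 (1.7e-06, same test). Fibcd1 differed by 2.30 ± 0.27 (edgeR adjusted p = 0.00036) and Grin1 by 2.12 ± 0.34 (0.002, same test). Megf6 and Zbtb8b differed less, by 1.25 ± 0.18 and 1.07 ± 0.20 (edgeR adjusted p = 0.001 and 0.0047). Those lower in dN-VEGF cells were Ghrh, by -2.25 ± 0.17 (edgeR adjusted p = 0.00035), and Aire, by -1.34 ± 0.31 (0.012, same test). The call for Aire was lost without dN-VEGF hypoxia replicate 2 or 3 (edgeR adjusted p = 0.061 and 0.059), and that for Zbtb8b fell below the fold threshold when samples were scaled by total counts alone (log2 difference 0.85).

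The remaining 4 calls were the least stable. B4galnt3, Selenbp2, Tph1 and Prex1 were higher in dN-VEGF cells by 1.29 ± 0.30, 1.24 ± 0.36, 1.17 ± 0.28 and 1.12 ± 0.26 (log2 difference ± SE, edgeR adjusted p = 0.017, 0.034, 0.014 and 0.013), and each lost its call when single hypoxia samples were left out. Leaving out any 1 of the 6 hypoxia samples ended the call for Selenbp2, with an edgeR adjusted p of 0.094 to 0.13. For B4galnt3 this held of wild-type replicates 1, 2 and 3 and dN-VEGF replicates 1 and 3, for Tph1 of wild-type replicates 2 and 3 and dN-VEGF replicates 1 and 3, and for Prex1 of replicates 1 and 2 of both lines. Scaling by total counts alone also ended the calls for Selenbp2 (1.02, edgeR adjusted p = 0.074) and, by fold, for Tph1 (0.95) and Prex1 (0.90). Vgll1 passed the p threshold with a fold of 1.51 (edgeR adjusted p = 0.037), but not with the replicate block (0.061), total counts (0.15), no expression filter (0.13) or any 1 hypoxia sample left out (0.091 to 0.13). With replicate 2 left out of all 4 groups, a setting added after seeing the data, 11 higher and 2 lower genes were called again. In the main model 12 genes did not pass the p threshold. Of these, Gpr35 differed by 0.32 ± 0.15 (edgeR adjusted p = 0.17) although its samples did not overlap. Gpr35 did pass that threshold in some other settings. Among them were only the 6 hypoxia samples (edgeR adjusted p = 0.00025) and the DESeq2 Wald test (adjusted p = 0.0009). Its log2 difference stayed at 0.10 to 0.34 under all alternatives. Cnfn, F2rl2, Cox7a1 and Mettl7b overlapped between the lines, with log2 differences of 0.05, 0.06, 0.06 and -0.30.

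**Figure D4:**
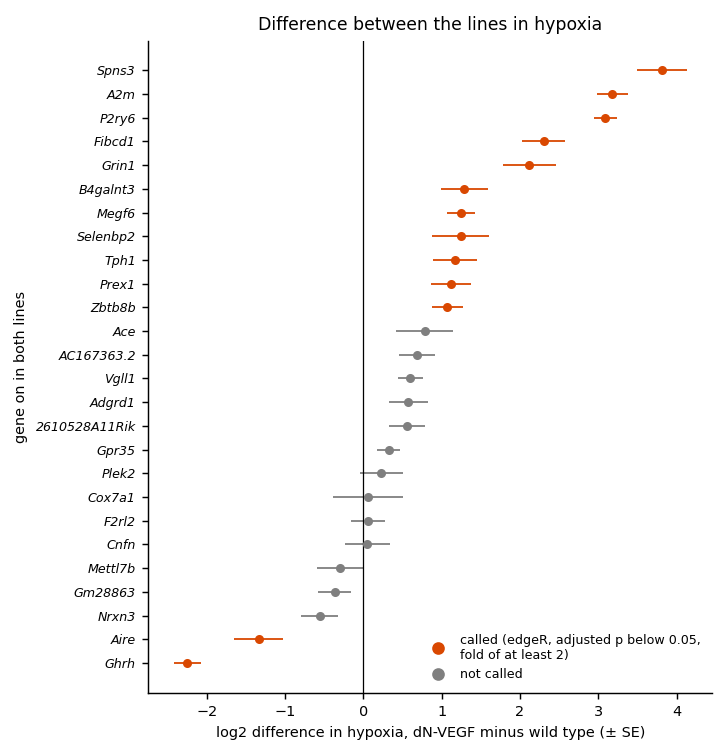
Points are the log2 difference between dN-VEGF and wild-type cells in hypoxia for the 26 genes on in both lines, with bars for ± 1 SE from the edgeR fit. Orange points passed an adjusted p below 0.05 and a fold of at least 2. They are the 11 genes at the top, from Zbtb8b to Spns3, and Aire and Ghrh at the bottom.

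No gene of a list of 36 HIF targets belonged to the 54 genes, although Nos2, a known target that the list left out, did. Of the 36, 35 were in the table and 32 tested, and hypoxia raised 29 of them in wild-type and 31 in dN-VEGF cells, with median log2 changes of 2.74 and 3.3 against -0.07 and -0.01 over all tested genes. Of all tested genes, hypoxia raised 9.17% in wild-type and 14.6% in dN-VEGF cells. Their levels in normoxia varied widely. Slc2a1 was at 156 and 2020 CPM in wild-type normoxia and hypoxia, the carbonic anhydrase Car9 at 0.709 and 29.9 CPM, and the glucose transporter Slc2a3 at 0.271 and 3.41 CPM, near the ceiling of the rule. The listed targets at or under 10 reads in all normoxia samples were 2, Epo and Car12, with at most 3 and 16 reads in any sample.

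The 6 noncoding genes were AC167363.2 and Gm28863, on in both lines, Gm12867 and Gm37019, on in dN-VEGF cells only, and the lincRNAs Gm12295 and Gm17746, on in wild-type cells only. AC167363.2 and Gm37019 are annotated as awaiting experimental evidence (biotype TEC), so that their noncoding class is not established. The first 4 overlap protein-coding genes that hypoxia raised strongly. Gm12867 held 5, 3 and 4 reads in wild-type normoxia, 3, 6 and 4 in dN-VEGF normoxia, 64, 37 and 71 in wild-type hypoxia and 88, 61 and 110 in dN-VEGF hypoxia and lies antisense to Slc2a1, of whose reads its own were 0.0800% and 0.0941%. Gm28863, antisense to the vasodilator gene Adm, held 68, 56 and 71 reads in wild-type and 47, 42 and 46 in dN-VEGF hypoxia, which was 0.587% and 0.447% of the reads of Adm. AC167363.2 lies opposite the cell cycle inhibitor Cdkn1a and shares 273 exonic bases with it, 26.1% of its exons, and its reads were 0.329% and 0.357% of those of Cdkn1a. Gm37019 lies within the span of the inositol kinase gene Itpk1 on the same strand, with no shared exon, at 0.305% and 0.484% of its reads. The library kit does not mark strand, so reads of these genes and of partners on the opposite strand cannot be told apart where they overlap, and how far the partner's reads contribute was not tested. Gm12295 held 0, 8 and 5 reads in wild-type normoxia, 2, 3 and 2 in dN-VEGF normoxia, 64, 54 and 87 in wild-type hypoxia and 24, 13 and 15 in dN-VEGF hypoxia. Gm17746 held 2, 3 and 3 reads in wild-type normoxia, 0, 5 and 10 in dN-VEGF normoxia, 63, 50 and 47 in wild-type hypoxia and 28, 29 and 28 in dN-VEGF hypoxia.

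**Figure D5:**
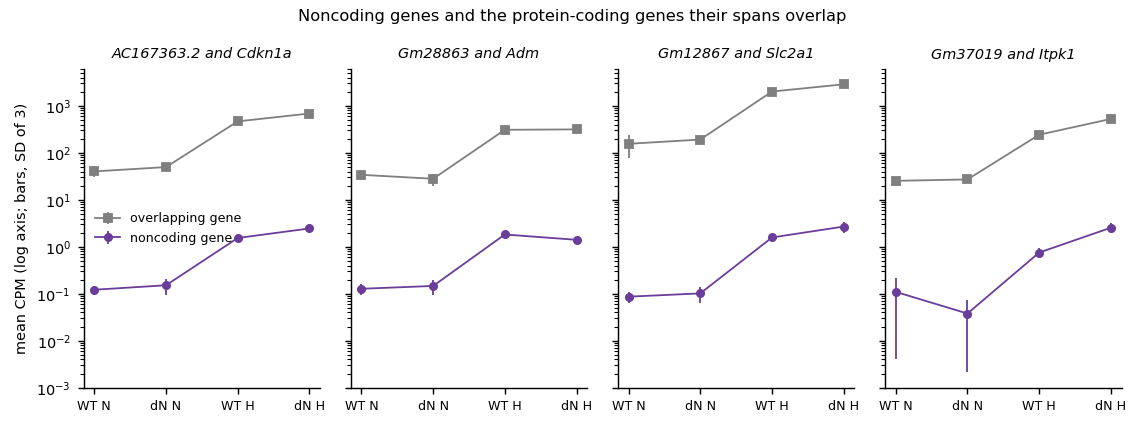
Circles are the mean CPM of 4 genes with no established coding product and squares that of the protein-coding gene each one overlaps, on a log axis, in wild-type (WT) and dN-VEGF (dN) normoxia (N) and hypoxia (H), with bars for the SD of 3 samples. Each noncoding gene is higher in hypoxia than in normoxia and lies far below a partner that is also higher in hypoxia, such as Slc2a1 at 2020 and 2880 CPM in hypoxia.

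The genes around the 54 were examined for their own response to hypoxia, with shares given as a description. The nearest tested gene outside the list was raised in at least 1 line for 16 of the 54 (29.6%), against 15.2% for all other tested genes, for 13 of the 33 with a neighbour within 10 kb (39.4% against 15%) and for 7 of the 9 whose spans overlap it (77.8% against 15.8%). Besides the 4 noncoding genes and Aire, these 9 include Otop2, on the opposite strand to Ush1g, an inner ear scaffold gene at 4.47 CPM in wild-type and 22.9 CPM in dN-VEGF hypoxia, and Mettl7b, which shares 9 exonic bases with the integrin gene Itga7 at 26.6 and 30.7 CPM. The neighbours not raised were Rps16-ps2, overlapped by Adgrd1, and Mcrs1, overlapped by Kcnh3. Hkdc1 lies 3.23 kb from the hexokinase gene Hk1 on the same strand, which hypoxia raised from 128 to 997 CPM in wild-type and from 128 to 2230 CPM in dN-VEGF cells. Spns3 lies 5.01 kb from Spns2 on the same strand, which was at 0.0844 and 0.115 CPM in wild-type and 0.0874 and 0.966 CPM in dN-VEGF cells. Among the 54 genes themselves, Cdhr1 and 2610528A11Rik lie 3.79 kb apart on the same strand of chromosome 14. The largest numbers on 1 chromosome were 10 on chromosome 11 and 7 on chromosome 7.

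The promoters of 40 of the 54 genes were in RefSeq's table for build GRCm38.p6, as windows from 250 bases before to 50 after a start site. ACGTG or GCGTG, the letters HIF sites share, was searched on both strands, and 28 of the 40 (70.0%) had a window with at least 1 match (95% Wilson interval 54.6 to 81.9%), against 66.7% of tested genes and 46.7% of all genes in the table. With only the 250 bases before the start the shares were 57.5%, 60.5% and 41.5%, so that the order of members and tested genes turned. For ACGTG alone the shares were 32.5%, 29.2% and 21.8%. The first window of these genes had a median GC content of 53.3% and 6 CpG pairs, near the 52.7% and 7 of all genes and below the 60.7% and 20 of tested genes, which is given as a description. Matches with 10 bases on either side, the match in capitals, are shown for the 4 most abundant genes with 1 before a start site and for Ghrh. The match began 156 bases before an annotated start in Gpr35 (chr1:92978737-92978761, plus strand), 4 in Zbtb8b (chr4:129440808-129440832, minus strand), 56 in Megf6 (chr4:154170647-154170671, plus strand), 164 in 2610528A11Rik (chr14:37110251-37110275, minus strand) and 89 in Ghrh (chr2:157346730-157346754, minus strand). A match is a run of letters and not a binding site, and its absence elsewhere says nothing beyond the window.
Gpr35: ggaatgtgggACGTGactgtagagc
Zbtb8b: atgaaaggggGCGTGtcagtactct
Megf6: ggcggaacggGCGTGgcttgggctg
2610528A11Rik: attcagcactACGTGcagcaagtca
Ghrh: aaggccatgtACGTGctctggaaca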

How the data were processed

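The authors deposited 1 table of raw read counts per gene for the 12 samples. Per the labels and the study's methods, single reads of 80 bases from a kit that does not mark strand were trimmed with Trim Galore and cutadapt 1.10, aligned to GRCm38 with TopHat2 2.1.0 and Bowtie2 2.2.6, and counted with HTSeq 0.6.1, and the authors tested with DESeq2 1.18.1. The strand setting of the counting is not given in the sources used here.

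Members were picked from the raw counts (ceiling 10, floor 40). The members and the gene lists were chosen with earlier results of these data known, and roles and tissues were assigned from general knowledge after the list was seen. One edgeR 4.0.16 quasi-likelihood model with 4 groups was fitted in R 4.3.3 to all 14724 genes passing its expression filter, with TMM scaling (factors 0.825 to 1.21) and Benjamini-Hochberg adjustment over all of them. A call needs an adjusted p below 0.05 and a fold of at least 2. CPM values were computed from the deposited counts. Ratios between groups are of pooled CPM, with exact 95% intervals for counting error only, against 3 counts where a group had none. Wilson intervals were computed for promoter shares. The script was tested on simulated data.

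Genes given with values in every sample were Aire, A2m, Zbtb8b and P2ry6, the 12 highest in hypoxia, the 5 largest called line differences each way, and the 5 highest of each single-line class. Genes at the edge of the rule are given by the count nearest the limit. Every other member is given because all are accounted for, except that 1 member and 1 gene at the edge of the rule are counted but not reported here, and the noncoding genes, neighbours and the listed genes quoted with values were chosen after their values were seen. RefSeq promoter windows were matched by symbol and kept only within 10000 bases of the gene on its strand. Alternatives were DESeq2 1.42.0, other scalings, filters and thresholds, the replicate block and leaving out each sample. In hypoxia the deviations of same-numbered samples of the 2 lines correlated at 0.0212 to 0.109 (mean 0.0727) and those of other numbers at -0.111 to 0.0453 (mean -0.0362). Not every pair passed 0.1, so numbers were not treated as pairs. This check covered hypoxia samples only and not normoxia, where replicate 2 was farthest from the others, so it does not exclude a shared replicate effect.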

Additional observations from a re-analysis of the deposited data

Results flagged for a closer look

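The interaction of line and oxygen in edgeR, adjusted over all tested genes, passed for 2 of the 26 genes on in both lines. The share of all tested genes that passed is not given here, so this count has no background to be read against. The rule had capped normoxia at 10 reads in both lines, so for these genes the value largely restates the difference in hypoxia and is given as a description. For P2ry6 the log2 change in dN-VEGF cells exceeded that in wild-type cells by 3.34 (SE 0.47, edgeR adjusted p = 0.0068), and for Spns3 by 4.20 (SE 0.70, edgeR adjusted p = 0.013). The rule used here for single outlying samples needs at least 4 samples a group and was not applied to groups of 3.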

How the results depend on the processing

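The number of genes follows the thresholds. A normoxia ceiling of 5 reads gave 31 genes (18 on in both lines, 1 in wild type only, 12 in dN-VEGF only) and a ceiling of 20 gave 96 (46, 14 and 36). A hypoxia floor of 20 reads gave 111 (59, 9 and 43) and a floor of 80 gave 27 (14, 2 and 11). Leaving out 1 sample gave 54 to 59 genes, with 26 to 30 on in both lines, 6 to 10 in wild type only (10 without wild-type hypoxia replicate 2) and 18 to 25 in dN-VEGF only. With replicate 2 left out of all 4 groups, added after seeing the data, there were 71 genes, 35 on in both lines, 14 in wild type only and 22 in dN-VEGF only, all 54 among them.

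Of the tests of the 26 genes, 469 gene results under alternatives kept their call or lack of one, 25 lost the call and 0 called genes reversed. The uncalled Cnfn, F2rl2 and Cox7a1, with differences near 0, changed sign under some alternatives. With total counts in place of TMM, 7 genes were higher in dN-VEGF cells instead of 11, and the median was 0.42, while that of all tested genes moved from -0.01 to -0.23. Leaving out 1 sample gave 7 to 11 higher (7 without wild-type hypoxia replicate 2 or dN-VEGF hypoxia replicate 1), 1 to 2 lower, and a median of 0.59 to 0.66. Over all tested genes, 422 were higher and 580 lower. These were 1583 and 1378 with no fold threshold, 270 and 1060 with total counts, 281 to 630 and 343 to 892 with 1 sample left out, and 668 and 947 without replicate 2 of every group. That last setting called 11 and 2 of the 26 genes. The cause was not tested. With the replicate number as a block, 11 and 2 of the 26 genes and 419 and 632 of all tested genes were called, with a median of 0.64. Promoters with ACGTG alone were 32.5% instead of 70.0%, since fewer letters were searched. Low counts limit the genes near 40 reads.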
